A study of Homo sapiens with 4 samples.

Results

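Notch signalling genes were followed in MDA-MB-231 cells, an established human triple-negative breast cancer line, after siRNA knockdown of hTrmt13. The genes were the rows of the count table whose symbol is NOTCH1, NOTCH2, NOTCH3, JAG1, JAG2, DLL1, RBPJ, MAML1, HES1 or HEY1. All 10 were present among 28930 gene symbols. The study compared cells given a control siRNA with cells given an siRNA against hTrmt13, a tRNA ribose methyltransferase encoded by TRMT13, with 2 RNA-seq libraries in each group. No sequence, dose or time of the siRNA is given in the sources used here. The comparison shows which transcripts differ after the knockdown. Direct, indirect and off-target effects of the siRNA cannot be told apart in it.

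Notch is a contact-dependent signalling pathway. A Jagged or Delta-like ligand on one cell binds a Notch receptor on its neighbour, and the receptor is then cut by an ADAM protease and by gamma-secretase. The freed intracellular domain enters the nucleus, joins the DNA-binding protein RBPJ and a Mastermind coactivator such as MAML1, and switches on genes of the HES and HEY repressor families. In breast epithelium the pathway is known for its part in cell fate choices, and in breast cancer for its activity in basal-like tumours.

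The libraries held 9777267 to 13098985 counts in total, and a level of 1 CPM (counts scaled to library size by TMM) rested on 9.58 to 13.4 counts. The targeted gene TRMT13 was lower in both knockdown libraries (3.52 and 4.79 CPM, against 14.9 and 18.9 CPM in control; log2 fold change −2.02, SE 0.34). Its adjusted p was 0.0399 in the quasi-likelihood test of edgeR with Benjamini-Hochberg adjustment, which also gave the other adjusted p-values below. The line's defining genes VIM, CD44, EGFR and AXL were present in every library, ESR1 and PGR had no count, and CDH1 had 1 count in each group. The summed level of those 4 genes was 4005 and 4552 CPM in control, against 2847 and 3035 CPM after knockdown. The genes did not move alike: VIM held 1769 and 1821 CPM in control, against 1804 and 1845 CPM after knockdown, while EGFR held 1064 and 1361 CPM, against 303.3 and 404.3 CPM. Among 5 blood cell markers 3 had no count, and their summed level was 0.76 to 1.12 CPM. Of 5 fibroblast and endothelial markers in the table, DCN had no count. Their summed level, nearly all of it COL1A1 and PDGFRB, was 71.4 and 56.9 CPM in control, against 50.9 and 32.5 CPM after knockdown, and its part in the results below was not tested. Mitochondrial transcripts took 4.82% to 6.88% of the counts and did not separate the groups. Their share was higher in replicate 1 (6.88% in control, 6.25% in knockdown) than in replicate 2 (4.82% and 5.18%). The labels do not say whether replicates are separate cultures, and the p-values rest on a spread between libraries that may be technical.

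Of the 10 genes, 9 had enough counts to be tested, and 2 passed at an adjusted p under 0.05. NOTCH2 and the ligand gene JAG1 fell by 1.58 and 1.59 on the log2 scale. In edgeR 0 genes of the set rose, 1 was higher at an unadjusted p under 0.05 (NOTCH3), and DESeq2 called 0 higher. Over all 13022 genes tested, 2.99% were called in either direction, 1.96% lower and 1.03% higher. DESeq2 called 1129 of 13371 genes in either direction. The share of all genes at an unadjusted p under 0.05 was not counted. Counts at that unadjusted p, here and for the groups below, therefore have no share to be set against. JAG2 and the target gene HES1 had fold changes of the same size but did not pass, and neither did NOTCH1, NOTCH3 or HEY1. The nuclear components RBPJ and MAML1 were near 0. The median log2 fold change of the 9 genes was −1.32, the value of the scarce gene HEY1, with 6 negative and 3 positive values. Over all tested genes the median was 0.01. Leaving out control replicate 1 moved the median of the 9 genes to −0.64 and leaving out knockdown replicate 1 to −0.83. The genes were chosen with earlier results of these data known. Their number of calls and their median are therefore no independent evidence of a direction.

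**Figure D1:**
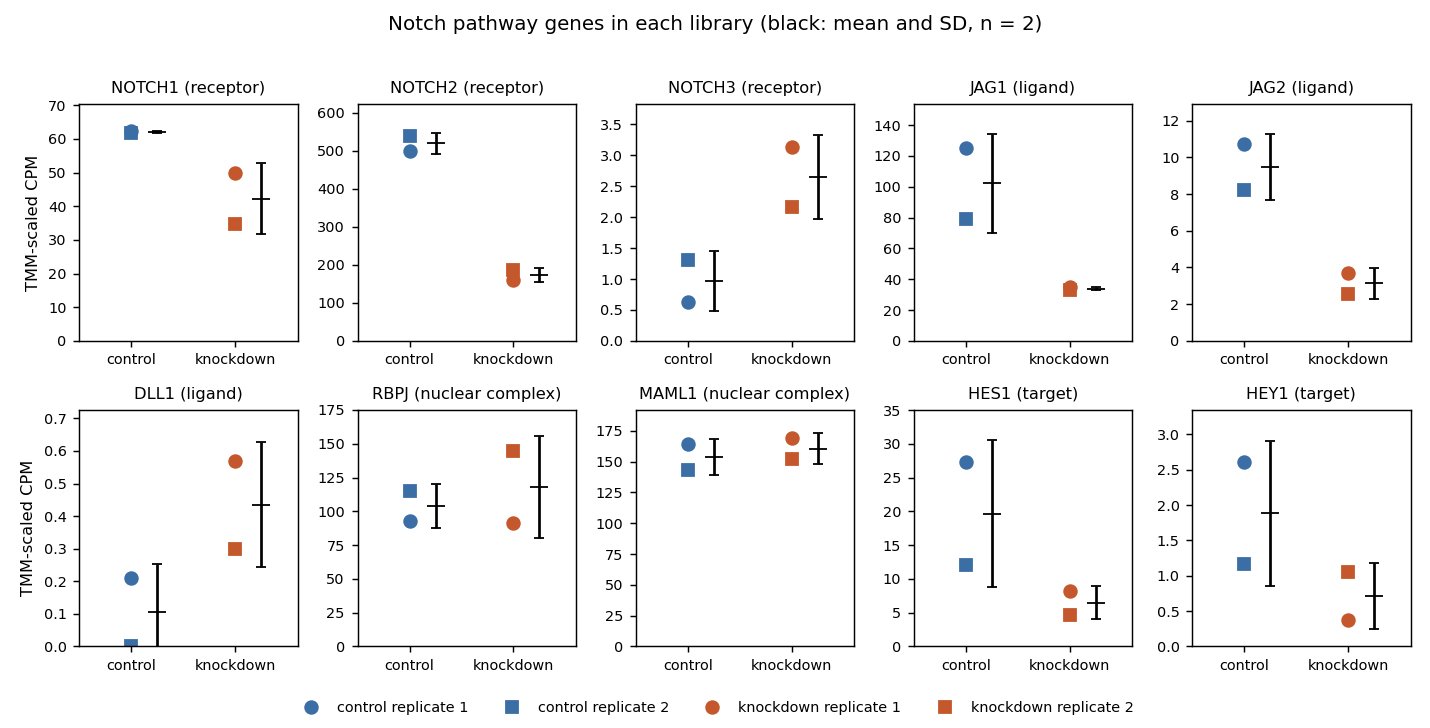
Level of each of the 10 Notch genes in the 4 libraries, in TMM-scaled CPM on axes that start at 0, with the group mean and SD in black (n = 2 per group). The knockdown libraries lay below both control libraries for NOTCH1, NOTCH2, JAG1, JAG2, HES1 and HEY1, above them for NOTCH3 and DLL1, and overlapped them for RBPJ and MAML1.

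The libraries of the groups did not overlap in 7 of the 9 tested genes, 6 of them lower and 1 higher in the knockdown. Such a separation was seen in 54.3% of all tested genes, in 27.5% with the knockdown higher and in 26.8% with it lower. With 2 libraries a group, separation by itself is therefore common in this comparison.

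Among the receptors, NOTCH2 was the most abundant per length and the only one called. The controls held 499.8 and 538.0 CPM of NOTCH2, against 160.2 and 186.7 CPM after knockdown. The groups lay far apart relative to the spread within each, at 518.9 ± 27.0 and 173.4 ± 18.7 CPM (SD, n = 2). This was a 2.99-fold fall (log2 fold change −1.58, SE 0.21, edgeR adjusted p = 0.0287). In bulk RNA, fewer cells with a transcript and less of it per cell cannot be told apart.

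NOTCH2NL, a partial duplicate of NOTCH2 that encodes a truncated secreted protein, is close enough in sequence that its reads and those of NOTCH2 may have been exchanged or lost. It had 34.2 and 48.96 CPM in control, against 23.5 and 30.7 CPM after knockdown (log2 fold change −0.62, SE 0.29, edgeR adjusted p = 0.249), and leaving out control replicate 2 gave −0.34. The NOTCH2 count was 14.6 and 10.99 times the NOTCH2NL count in control, and 6.82 and 6.08 times that count after knockdown. NOTCH2 was thus lower relative to its duplicate in both knockdown libraries, as far as the counting kept the genes apart.

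NOTCH1, the receptor first known from T-cell leukaemia, was close to even between the control libraries, at 62.3 and 61.9 CPM. The knockdown libraries held 49.8 and 34.8 CPM. They were both below control but far from each other, and the difference did not pass the test (log2 fold change −0.56, SE 0.26, edgeR adjusted p = 0.253). The value was −0.32 with knockdown replicate 2 left out. NOTCH3, a receptor best known from vascular smooth muscle, had 6 and 17 counts in control and 33 and 29 counts in knockdown, or 0.63 and 1.31 CPM against 3.14 and 2.17 CPM. It was the only tested receptor with a positive value, and on these low counts it did not pass (log2 fold change 1.40, SE 0.52, edgeR adjusted p = 0.169). NOTCH4, the remaining receptor gene, had 14 to 18 counts per library, and its groups overlapped (log2 fold change −0.25, SE 0.48, edgeR adjusted p = 0.795).

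Divided by the exon length of each gene in GENCODE release 29, the 4 receptors together came to 38.1 and 40.4 CPM per kb in control and 15.9 and 15.8 CPM per kb in knockdown. NOTCH2 made up 81.5% and 82.8% of that level in control, and 62.8% and 73.6% after knockdown. NOTCH1 made up 17.6% and 16.4% in control and 33.7% and 23.7% in knockdown. NOTCH2 remained the leading receptor transcript in each library, with a smaller share in both knockdown libraries. With the longest coding transcript as the length, a choice added after seeing the data, the NOTCH2 share averaged 86.6% in control and 75.1% in knockdown.

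**Figure D2:**
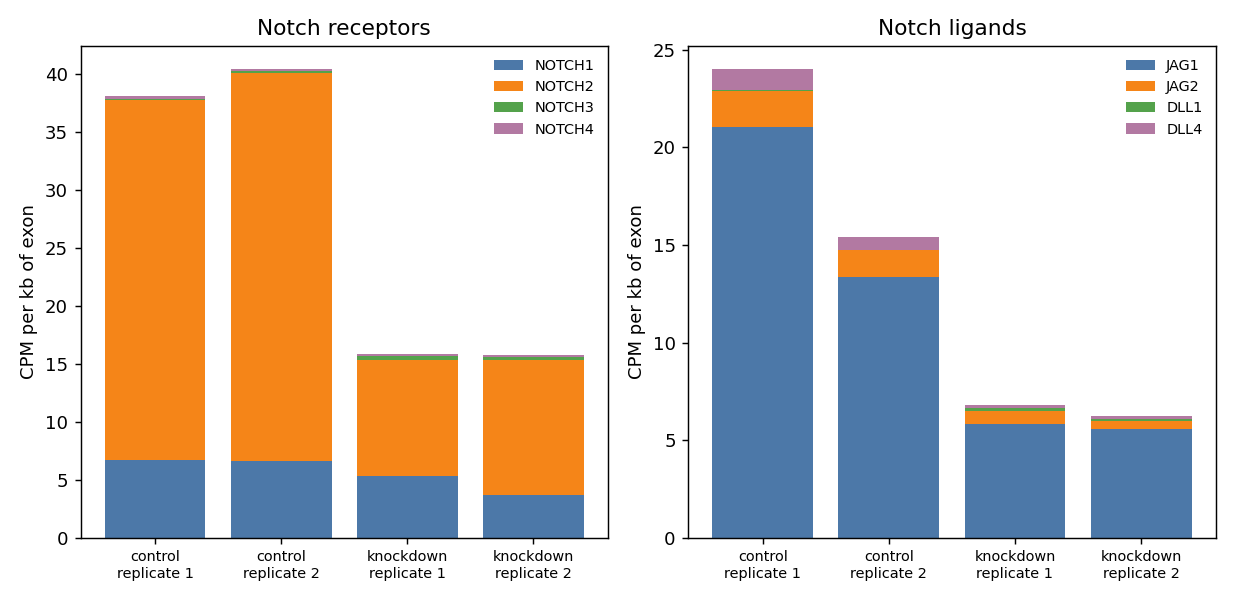
Level per kb of exon of the Notch receptor genes (left) and of the Notch ligand genes (right), in CPM per kb, stacked by gene in each library. NOTCH2 is the largest part of the receptor bars and JAG1 the largest part of the ligand bars in all 4 libraries, and both sets of bars are shorter in the knockdown libraries.

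The Jagged genes had fold changes close to that of NOTCH2. JAG1, a ligand of the Serrate type, stood at 125.1 and 79.4 CPM in control, against 34.7 and 33.0 CPM after knockdown. The control libraries differed from each other and the knockdown libraries did not, but no library crossed over. The means were 102.2 ± 32.3 and 33.9 ± 1.19 CPM (SD, n = 2), a 3.02-fold fall (log2 fold change −1.59, SE 0.28, edgeR adjusted p = 0.0428). This call sat close to the threshold and ended without control replicate 1, the higher control library (log2 fold change −1.22, edgeR adjusted p = 0.0699).

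JAG2, its closest relative, was far less abundant. It had 10.8 and 8.20 CPM in control, against 3.71 and 2.55 CPM after knockdown, on 103 and 106 counts against 39 and 34. The fold change matched that of JAG1, yet JAG2 did not pass (log2 fold change −1.60, SE 0.37, edgeR adjusted p = 0.0687). It did pass in DESeq2's Wald test (adjusted p = 0.0256), in which 5.04% of genes were called lower.

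DLL1, a Delta-like ligand, was almost undetected. It had 2 and 0 counts in control and 6 and 4 after knockdown, too few to be tested. The depth-scaled ratio of knockdown to control was 4.72, with a 95% exact binomial interval from 1.00 to 44.3 that covers counting error only. DLL4, the Delta-like ligand of blood vessels, had 34 and 28 counts in control and 6 and 6 in knockdown, and its log2 fold change of −2.46 (SE 0.52) missed the threshold (edgeR adjusted p = 0.0594). DLL3 and DLK1 had no count.

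Per kb of exon the ligand genes JAG1, JAG2, DLL1 and DLL4 together came to 23.99 and 15.4 CPM in control, against 6.82 and 6.22 CPM after knockdown. JAG1 made up 87.7% and 86.8% of this in control and 85.6% and 89.4% in knockdown. The level of the ligands was therefore lower in both knockdown libraries while the share of JAG1 overlapped between the groups.

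In the nuclear complex no difference exceeded the spread between libraries. RBPJ, which binds DNA with or without Notch, had 92.6 and 115.2 CPM in control, against 91.6 and 144.5 CPM after knockdown. In each group its replicate 2 library was the higher one. Its log2 fold change was 0.18 (SE 0.28, edgeR adjusted p = 0.736), and −0.18 without knockdown replicate 2. RBPJ has processed pseudogenes that can share its reads. MAML1, the Mastermind coactivator, had 164.3 and 143.5 CPM in control, against 169.4 and 151.9 CPM after knockdown. Its groups overlapped as well (log2 fold change 0.06, SE 0.21, edgeR adjusted p = 0.89), and leaving out control replicate 2 gave −0.03 and leaving out knockdown replicate 1 gave −0.01.

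HES1 encodes a helix-loop-helix repressor and is the most widely used readout of Notch activity. It stood at 27.3 and 12.0 CPM in control, against 8.18 and 4.72 CPM after knockdown. Replicate 1 was higher than replicate 2 in each group, and both knockdown libraries lay below the lower control library. The means were 19.7 ± 10.9 and 6.45 ± 2.45 CPM (SD, n = 2), and with that spread the difference did not pass (log2 fold change −1.61, SE 0.48, edgeR adjusted p = 0.115). DESeq2's Wald test called it (adjusted p = 0.0175). So did an edgeR fit that paired the libraries by replicate number, in which 40.1% of all tested genes were called. The labels do not state such a pairing. The log2 fold change of HES1 was −0.90 without control replicate 1, and −2.09 without control replicate 2.

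HEY1, the other repressor target, was scarce, with 25 and 15 counts in control and 4 and 14 in knockdown. That is 2.61 and 1.16 CPM against 0.38 and 1.05 CPM, so knockdown replicate 2 lay just under control replicate 2. The difference did not pass (log2 fold change −1.32, SE 0.66, edgeR adjusted p = 0.28), and it ran from −2.25 when knockdown replicate 2 was left out to −0.64 when control replicate 1 was. Of 7 further HES and HEY genes, 5 were tested and 0 passed in edgeR (0 at an unadjusted p under 0.05, and 0 in DESeq2), with values from −0.71 to −0.05 on the log2 scale. HES2 had the smallest p among them (log2 fold change −0.71, SE 0.36, edgeR adjusted p = 0.283), and its value was −0.35 with control replicate 2 left out.

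**Figure D3:**
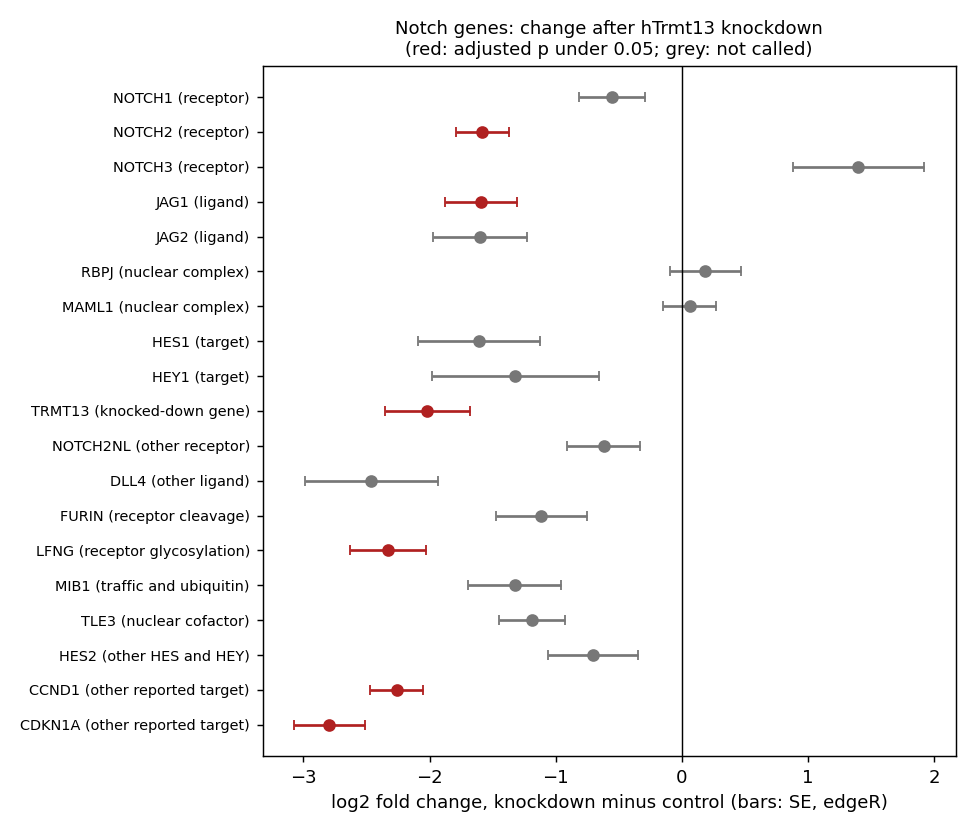
Log2 fold change of knockdown against control with its SE for the 9 tested Notch genes, TRMT13 and the pathway genes named in the text, with genes at an adjusted p under 0.05 in red. NOTCH2 and JAG1 are the called Notch genes, JAG2 and HES1 lie at nearly the same value with wider bars, and RBPJ and MAML1 lie near 0.

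RBPJ binds DNA at a motif whose core is TGGGAA, most often preceded by a G (GTGGGAA). Both forms were searched on both strands in the 250 bases before each listed transcription start, and each GTGGGAA match also counts as a TGGGAA match. Promoter sequences are those of RefSeq on GRCh38.p14, which held entries for 8 of the 10 genes, all but DLL1 and HEY1. Over 35116 start sites of all genes, 20.8% held at least 1 TGGGAA match, 2.9% held 2 or more, and 5.43% held GTGGGAA. Among the 8 genes, 2 held a match, HES1 and RBPJ. RBPJ has 5 listed starts, so this count per gene cannot be set against the share per start site. The windows of HES1 and of the matching RBPJ start are shown with those of the called genes NOTCH2 and JAG1, 5′ to 3′ along the gene's strand, with matches in capitals.
HES1: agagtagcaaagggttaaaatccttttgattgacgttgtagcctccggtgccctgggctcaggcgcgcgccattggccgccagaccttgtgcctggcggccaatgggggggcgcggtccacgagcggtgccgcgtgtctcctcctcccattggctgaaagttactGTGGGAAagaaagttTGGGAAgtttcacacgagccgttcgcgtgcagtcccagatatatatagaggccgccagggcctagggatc
RBPJ: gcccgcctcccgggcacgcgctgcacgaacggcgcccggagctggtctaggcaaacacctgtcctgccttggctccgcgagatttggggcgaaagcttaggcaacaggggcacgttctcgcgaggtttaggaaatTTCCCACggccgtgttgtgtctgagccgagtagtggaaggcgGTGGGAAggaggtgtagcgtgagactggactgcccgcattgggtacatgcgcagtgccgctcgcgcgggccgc
NOTCH2: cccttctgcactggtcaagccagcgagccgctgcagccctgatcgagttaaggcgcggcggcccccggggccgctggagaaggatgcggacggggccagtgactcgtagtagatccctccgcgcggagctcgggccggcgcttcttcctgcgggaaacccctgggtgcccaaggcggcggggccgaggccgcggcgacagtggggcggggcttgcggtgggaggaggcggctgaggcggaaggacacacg
JAG1: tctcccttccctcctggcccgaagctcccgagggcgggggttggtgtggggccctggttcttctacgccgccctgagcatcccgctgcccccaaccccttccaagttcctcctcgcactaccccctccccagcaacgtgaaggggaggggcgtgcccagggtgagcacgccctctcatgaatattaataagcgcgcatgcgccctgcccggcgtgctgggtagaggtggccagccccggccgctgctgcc
The HES1 window is chr3:194135898-194136147 on the plus strand. It held 2 matches in the same orientation, the first, a GTGGGAA, 85 to 79 bases before the start and the second, a TGGGAA, 70 to 65 bases before it. The RBPJ window is chr4:26319496-26319745 on the plus strand, 1 of 5 RBPJ start sites listed and the 1 with matches. It held 2 GTGGGAA matches in opposite orientations, 115 to 109 and 73 to 67 bases before the start. The NOTCH2 window (chr1:120069663-120069912, minus strand) and the JAG1 window (chr20:10674000-10674249, minus strand) held no match. Thus of the 2 genes with a match, HES1 had a negative value that did not pass and RBPJ a value near 0, and both called genes had none in this window. LFNG, a called pathway gene described below, held 1 TGGGAA match, 248 to 243 bases before 1 of its 2 listed starts. These coordinates are on a later build than the hg19 and GRCh37 named in the submitters' processing notes, and the count table itself holds no coordinates.

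Beyond the 10 genes, 64 other genes of the pathway were read from the same fit. Of these 53 were tested, and 3 fell and 0 rose in edgeR (3 were higher at an unadjusted p under 0.05, and DESeq2 called 0 higher), beside 1.96% lower and 1.03% higher over all tested genes. The fall of 2 of the 3, CCND1 and CDKN1A, was known when the list was drawn up, so this count is no independent evidence of a direction. Their median log2 fold change was −0.11, with 32 negative and 21 positive values. The groups did not overlap in 30 of the 53, near the 54.3% of all tested genes.

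The fringe enzymes modify the sugars on Notch receptors and so shift their choice between Delta-like and Jagged ligands. LFNG, which encodes lunatic fringe, fell 5.03-fold, from 205.7 and 126.6 CPM to 35.8 and 30.3 CPM (log2 fold change −2.33, SE 0.30, edgeR adjusted p = 0.0276). The control libraries were uneven, but the lower of them was still well above both knockdown libraries. LFNG was the 1 called gene of 5 that encode glycosylation enzymes of the receptor, beside 1.96% called lower over all tested genes. The list was chosen with earlier results of these data known, so this count is no independent evidence about these enzymes. At an unadjusted edgeR p under 0.05 there were 3 of the 5, with 1 of them higher, and DESeq2 called 1. The share of all genes at that unadjusted p was not counted.

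Of 9 tested genes for receptor cleavage 0 passed in edgeR (1 at an unadjusted p under 0.05, and 1 in DESeq2), with 5 positive and 4 negative values. FURIN, the convertase that makes the first cut during receptor maturation, had the smallest p among them. It stood at 486.1 and 258.7 CPM in control, against 209.3 and 134.5 CPM after knockdown (log2 fold change −1.12, SE 0.36, edgeR adjusted p = 0.131). Leaving out control replicate 1, the highest of these, gave −0.59.

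Of 10 tested genes for traffic and ubiquitination of ligands or receptors, 0 passed in edgeR (2 at an unadjusted p under 0.05, and 1 in DESeq2). MIB1, the ubiquitin ligase that lets ligands be internalised, had the smallest p. It stood at 53.2 and 89.1 CPM in control, against 21.1 and 35.6 CPM after knockdown (log2 fold change −1.33, SE 0.37, edgeR adjusted p = 0.0967). Both knockdown libraries lay below both control libraries, and in each group replicate 2 was the higher one, the reverse of HES1 and FURIN. Of 15 tested nuclear cofactor genes 0 passed in edgeR (2 at an unadjusted p under 0.05, and 1 in DESeq2), and the smallest p was that of the corepressor gene TLE3 (log2 fold change −1.19, SE 0.26, edgeR adjusted p = 0.0609).

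Among other genes reported as Notch targets in one tissue or another, 5 of 7 were tested and 2 fell. Over all tested genes 1.96% were called lower. The 2 were CCND1, which encodes cyclin D1, and CDKN1A, which encodes the cell cycle inhibitor p21. Their fall was known when the list was drawn up, so this count is no evidence about Notch targets. CCND1 had 1252 and 1065 CPM in control, against 239.9 and 243.4 CPM after knockdown (log2 fold change −2.26, SE 0.21, edgeR adjusted p = 0.0229). CDKN1A had 83.0 and 70.8 CPM in control, against 12.8 and 9.36 CPM after knockdown (log2 fold change −2.79, SE 0.28, edgeR adjusted p = 0.0229). Both answer to many pathways. The other tested genes, MYC, SNAI2 and SOX9, had positive values from 0.49 to 0.72 and did not pass. NRARP, a feedback inhibitor induced by Notch, had 8 to 10 counts in each library and was not tested.

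The genes whose profile over the 4 libraries lay nearest to that of NOTCH2, of 10851 with a mean of at least 5 CPM, were SLC20A1, LARP4B and MYRF. Their Euclidean distances on centred log2 values were 0.07, 0.09 and 0.11. SLC20A1, a phosphate transporter gene, had 937.0 and 966.9 CPM in control, against 294.1 and 358.4 CPM after knockdown.

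**Figure D4:**
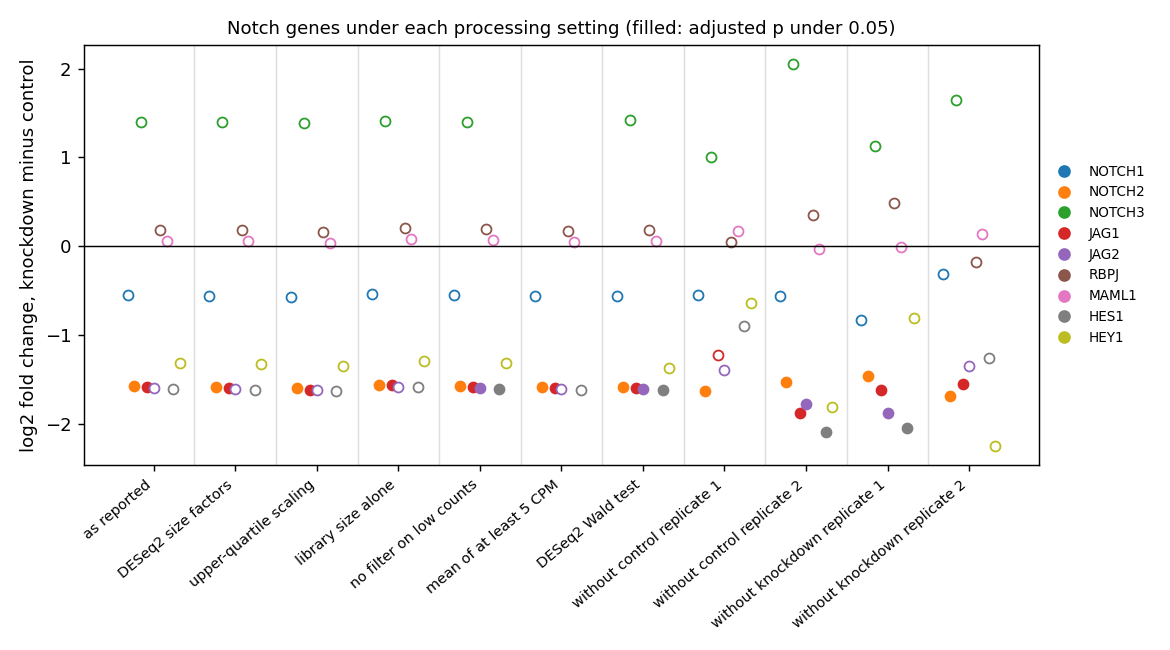
Log2 fold change of the 9 tested Notch genes as reported and under 10 other scalings, filters, tests or sets of libraries, with filled points for an adjusted p under 0.05. The fit with a replicate block, which called 6 of the 9, is not drawn. NOTCH2 is called in every setting drawn and JAG1 in all but the one without control replicate 1, while JAG2 and HES1 are called in some.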

How the data were processed

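RNA from 4 MDA-MB-231 libraries was made with Trizol and an Illumina TruSeq kit, per the labels' protocols. The authors deposited unnormalized whole-number counts for each gene symbol, with totals that differ between libraries. The builds hg19 and GRCh37 and the tools HTSeq 0.6.1, STAR 2.5.2b, limma and cutadapt are listed, without roles, per the submitters' processing notes. The strand setting and the annotation are stated in none of the sources used here.

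Knockdown was tested against control in edgeR 4.0.16 under R 4.3.3 (TMM, filterByExpr with a minimum count of 10 and a minimum total of 15, quasi-likelihood test, no covariate). Of 28930 genes 13022 were tested, and a Benjamini-Hochberg adjusted p under 0.05 was a call. The SE was derived from that test, as the absolute log2 fold change divided by the square root of its F statistic. CPM used TMM-scaled library sizes. Counts of replicates did not agree within sampling noise. Chi-square divided by its degrees of freedom was 40.4 for the control pair and 44.5 for the knockdown pair. Each library therefore entered the test as 1 sample, which does not show that the libraries are separate cultures. Exon lengths came from GENCODE release 29 basic transcripts, matched by symbol.

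Alternatives were 3 other scalings, 2 other filters, DESeq2 1.42.0, a replicate block and leaving out each library. Named genes were TRMT13, the 10 Notch genes, NOTCH2NL, the cell markers, per group of pathway genes every called gene or else the one with the smallest p, and the 3 profiles nearest to the Notch gene with the smallest p. The genes and lists were chosen with earlier results of these data known. ChIP-seq and CLIP-seq of the study were not used here.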

Additional observations from a re-analysis of the deposited data

How the results depend on the processing

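The 2 called Notch genes, NOTCH2 and JAG1, were called under DESeq2 size factors, upper-quartile scaling, library size alone and a mean of at least 5 CPM, with no other of the 10. No filter on low counts and DESeq2's Wald test called 4 each (JAG2 and HES1 besides). Leaving out 1 library gave 1 to 4, and JAG1 was lost without control replicate 1. Other pathway genes called numbered 3 as reported, 10 with no filter, 6 with DESeq2 and 4 to 8 with a library left out. Over all genes, 389 were called as reported, 1949 with no filter, 1129 with DESeq2 and 678 to 935 with a library left out. TRMT13 was called throughout, at −2.26 to −1.81 on the log2 scale with a library left out. Signs turned for RBPJ without knockdown replicate 2 (−0.18) and for MAML1 without control replicate 2 (−0.03) and without knockdown replicate 1 (−0.01), and the cause was not tested. With a library left out, RBPJ ran from −0.18 to 0.48 and MAML1 from −0.033 to 0.17. Signs held for TRMT13 and the other named pathway genes in each alternative that could test them. Over the 11 alternatives HES1 ranged from −2.09 to −0.90, JAG2 from −1.88 to −1.35 and NOTCH2 from −1.69 to −1.47. A fit with a library left out keeps 1 library in that group, and its spread comes from the other group alone. Calls in such fits are therefore not an equal check on the reported ones.

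With the replicate block the calls were 5227 over all genes (40.1%), 6 of the 9 tested Notch genes (1 higher, NOTCH3, and 5 lower, NOTCH1, NOTCH2, JAG1, JAG2 and HES1) and 23 of the 53 pathway genes. The replicate 1 minus replicate 2 differences correlated across genes between the groups (r = 0.639; genes are not independent replicates), and the library names run consecutively within each number. The labels name no shared batch or day, and with 2 numbers the data cannot settle whether the libraries are paired, so the fit without the block is the one reported. The depth limits DLL1, HEY1 and NOTCH3 most, at under 40 counts in each library.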
